A study of Homo sapiens with 36 samples.

Results

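The mitophagy receptors BNIP3, BNIP3L and FUNDC1 and the BCL2 family genes BAK1, BBC3, PMAIP1, MCL1 and BCL2L1 were examined for binding of tagged HIF-2α, HIF-1α and their domain swaps in 786-O cells. A peak was assigned to one of these 8 genes if its summit lay in the GENCODE gene body or within 50 kb on either side. Of 25783 consensus regions (overlapping peaks of at least 2 of the 18 anti-V5 libraries, merged), 37 had their summit in such a window. The 18 lists held 271 peaks in these windows, 258 of them in the 15 tagged libraries and 13 in the 3 untagged ones. As a share of its own list this was 0.0847% to 0.168% in tagged libraries and 0%, 0.116% and 0.269% in the untagged ones. Of the 271 peaks, 26 were seen in a single library and formed no consensus region. The 8 genes are 8 of 20033 protein-coding genes of the annotation.

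Binding was measured by Cut&Run, in which an antibody brings a nuclease to the protein on chromatin and the released DNA fragments are sequenced. 786-O is a human clear cell renal carcinoma line without functional VHL or HIF-1α, in which HIF-2α escapes degradation even when oxygen is plentiful. The series held 36 samples from 6 lines with 3 replicates each, 18 made with anti-V5 antibody and 18 with IgG, and the IgG libraries entered only as the control in the peak calls. WT cells carried no tag. KIN cells, the homozygous clone A31, carried V5 and Halo tags at the N-terminus of endogenous HIF-2α, so this line is 1 clone. The other 4 lines were stable lines expressing an exogenous Halo- and V5-tagged protein from the L30 promoter: HIF-2α, HIF-1α, HIF-2α/1α (residues up to 365 of HIF-2α followed by 364 to 826 of HIF-1α) and HIF-1α/2α (residues up to 363 of HIF-1α followed by 366 to 870 of HIF-2α). These 4 lines still had their own untagged HIF-2α. In the name of a swap the protein before the slash supplied the N-terminus, which binds DNA and dimerizes (DBD), and the protein after it the C-terminus, which is largely disordered (IDR).

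HIF-α proteins pair with ARNT (HIF-1β) and bind hypoxia response elements, short motifs built on the core ACGTG or GCGTG. BNIP3 and BNIP3L (also called NIX) are proteins of the outer mitochondrial membrane that recruit the autophagy machinery to mitochondria, and both are classical genes of the hypoxic response. FUNDC1 is another receptor of hypoxia-induced mitophagy that is known to be controlled mainly by phosphorylation. In the BCL2 family, BAK1 forms pores in the outer mitochondrial membrane, BBC3 (PUMA) and PMAIP1 (NOXA) are BH3-only proteins that promote this, and MCL1 and BCL2L1 (which encodes BCL-XL) hold it back.

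The windows of 201 bases around the summit of 5 regions are shown because they carry the contrasts described below: the BNIP3 promoter, called in every tagged library, and the distal regions of BAK1 and BCL2L1, called in all or nearly all libraries of several lines. All 5 windows are given 5′ to 3′ on the strand of the gene, which is the minus strand for BNIP3, BAK1 and BCL2L1 alike. Capitals mark each ACGTG or GCGTG found on either strand (CACGT or CACGC where it lies on the other strand), and CACGTG, which reads as ACGTG on both strands, was taken as 1 site. Positions are hg38, and the windows are chr10:131982035-131982235 for the BNIP3 promoter, chr6:33593301-33593501 and chr6:33599616-33599816 for BAK1, and chr20:31696338-31696538 and chr20:31712818-31713018 for BCL2L1.
BNIP3 promoter: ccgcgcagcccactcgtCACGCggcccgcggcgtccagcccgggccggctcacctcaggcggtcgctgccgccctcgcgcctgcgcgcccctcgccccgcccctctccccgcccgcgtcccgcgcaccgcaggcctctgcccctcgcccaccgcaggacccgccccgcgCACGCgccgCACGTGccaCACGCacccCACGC
BAK1 −13.1 kb: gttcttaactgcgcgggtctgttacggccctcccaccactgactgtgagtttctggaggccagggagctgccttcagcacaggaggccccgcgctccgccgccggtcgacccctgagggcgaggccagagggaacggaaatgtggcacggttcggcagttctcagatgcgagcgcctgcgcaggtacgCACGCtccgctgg
BAK1 −19.4 kb: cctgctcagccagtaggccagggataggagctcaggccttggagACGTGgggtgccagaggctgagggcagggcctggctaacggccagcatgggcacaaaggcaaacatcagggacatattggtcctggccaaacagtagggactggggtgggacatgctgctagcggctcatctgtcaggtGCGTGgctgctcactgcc
BCL2L1 +26.4 kb: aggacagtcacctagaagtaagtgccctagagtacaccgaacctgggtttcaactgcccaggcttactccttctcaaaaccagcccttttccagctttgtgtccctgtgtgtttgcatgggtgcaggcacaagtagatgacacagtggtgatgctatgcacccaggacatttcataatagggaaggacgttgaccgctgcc
BCL2L1 +9.9 kb: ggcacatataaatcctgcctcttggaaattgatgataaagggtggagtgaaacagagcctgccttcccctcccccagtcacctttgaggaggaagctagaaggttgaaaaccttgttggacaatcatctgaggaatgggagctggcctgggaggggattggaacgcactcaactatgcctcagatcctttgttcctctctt

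The BNIP3 promoter window held 5 sites. The nearest lay 71 bp from the summit, and 4 of the 5 lay close together 71 to 98 bp from it on the side of the gene. The BAK1 −13.1 kb window held 1 site at 90 bp, the BAK1 −19.4 kb window held 2 at 54 and 85 bp, and both BCL2L1 windows held none. The BNIP3L promoter (sequence not printed) held 3 sites, the nearest 18 bp from the summit. As a comparison, 45.5% of all consensus regions held at least 1 such site within 100 bp of the summit, against 14 of the 37 regions of these genes (37.8%). Among regions called in at least 12 of 15 tagged libraries it was 62.2%, against 3 of 6 regions of these genes (50%). These are matches of letters and not shown to be bound sites.

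Of the 37 regions, 6 were called in at least 12 of the 15 tagged libraries, against 17.7% of all consensus regions. These 6 were the promoters of BNIP3 and BNIP3L, a region in the BNIP3L gene, a region upstream of BAK1 and 2 intronic regions of BCL2L1. None lay near FUNDC1, BBC3, PMAIP1 or MCL1. A further 9 regions were called in 6 to 11 tagged libraries and 22 in fewer than 6. The median region of these genes was called in 4 tagged libraries, and the median of all consensus regions in 5. In the test of 15 tagged against 3 WT libraries (two-sided Fisher's exact test, Benjamini-Hochberg over all 25783 regions), 2 of the 37 regions passed an adjusted p of 0.05, the promoters of BNIP3 and BNIP3L, against 4.66% of all regions. Both had a Fisher's exact p = 0.00123 and adjusted p = 0.0263, which are the smallest values this design can give and need a call by every tagged library and by no WT library. With any of the 3 WT libraries left out, the design could not reach the threshold and the count was 0.

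**Figure D1:**
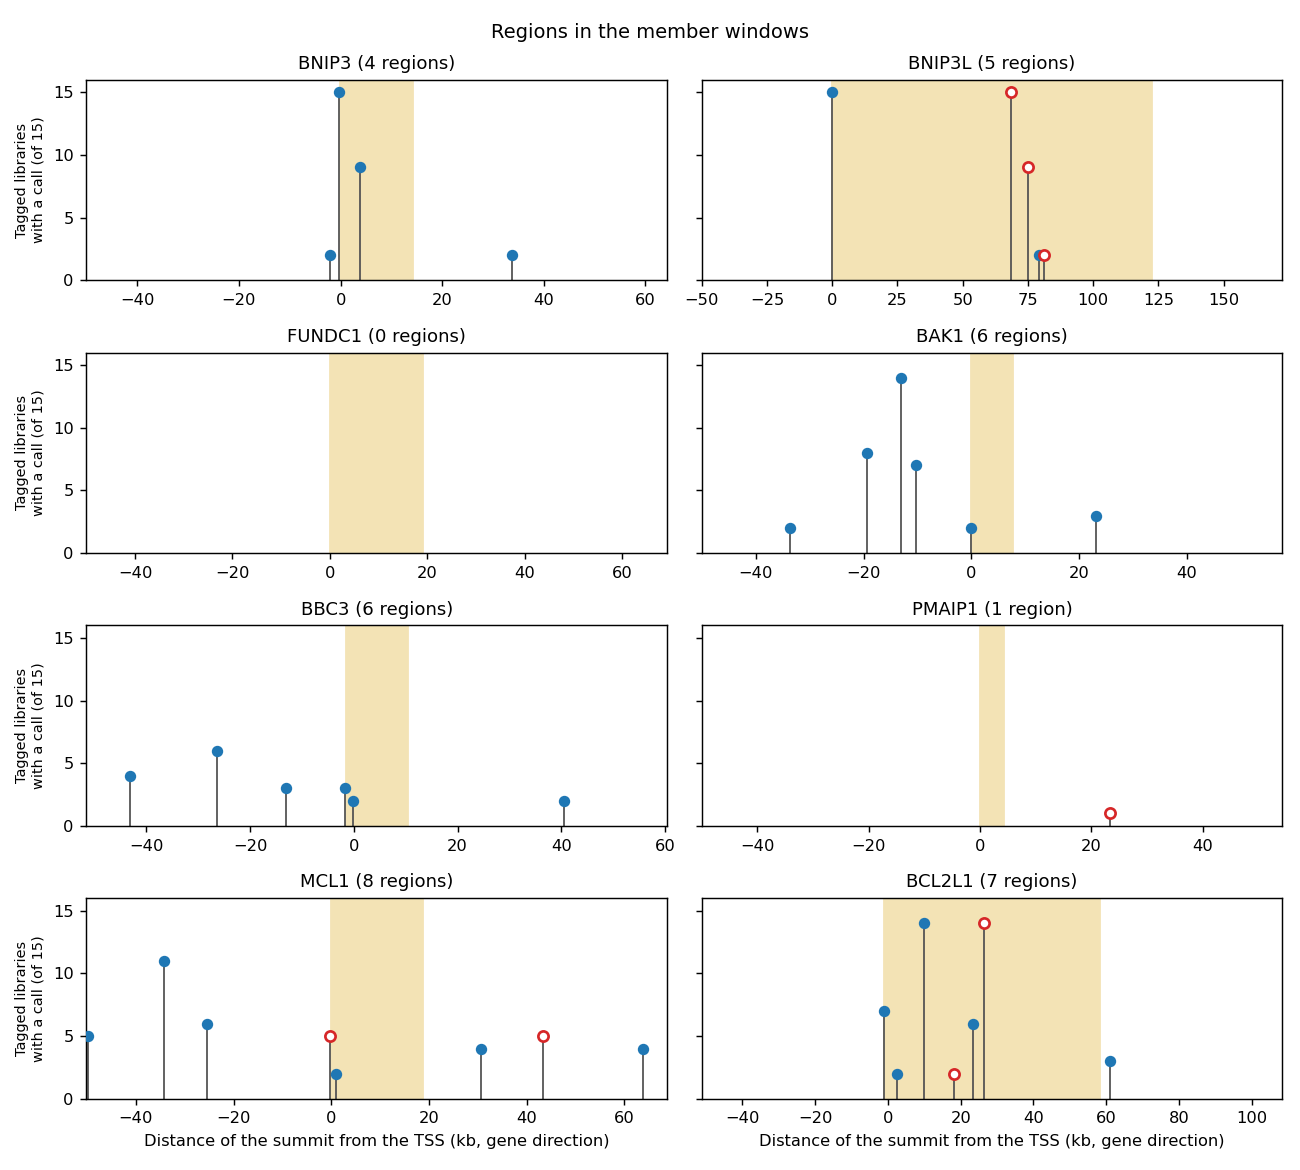
Each panel is the window of 1 gene, with the distance of the region's summit from the transcription start site in kb in the direction of the gene on the x axis and the number of tagged libraries (of 15) that called it on the y axis. The yellow band is the gene body, blue points had no WT call and open red circles had at least 1. The BNIP3 and BNIP3L promoters reach 15 libraries with no WT call, and FUNDC1 has no region.

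Depth and list length differed between libraries. The files held no read totals, and the depth solved from the deposited values was 0.241 to 0.625 fragments per base. Tagged lists held 3984 to 20808 peaks. WT lists held 392, 9508 and 743 peaks, and WT replicate 2 stands apart, with more peaks than 4 of the tagged libraries. It gave 11 of the 13 WT peaks in these windows, WT replicate 3 gave 2 and WT replicate 1 gave 0. A longer list calls more regions. A region's strength is therefore given below as its rank in its own list by −log10 q, as a percent of the list. Top 5% means that 5% of the peaks of that library were as strong or stronger. The fragments at the summit over the genome mean of the library are given as a second measure. The percent still depends on list length, because the same rank is a smaller percent of a longer list. Lists of tagged libraries held 4 to 35 peaks in the 8 windows, which was 0.0847% to 0.168% of the list. The KIN libraries held 4, 12 and 12, HIF-2α 8, 22 and 5, HIF-2α/1α 22, 35 and 16, HIF-1α 20, 27 and 25, and HIF-1α/2α 14, 24 and 12.

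BNIP3 lies on chromosome 10 (131967684 to 131981967, minus strand). Its promoter region (131980036 to 131982383, summit at 131982135) had its summit 168 bp upstream of the nearest coding start site and 212 bp upstream of the start of its canonical transcript. All 15 tagged libraries and none of the WT libraries called it, and all 15 summits lay within 100 bp of their median. In the KIN libraries the peak ranked in the top 12.9%, 2.3% and 3.36%. In the HIF-2α libraries it ranked in the top 15.2%, 7.80% and 21.5%, and in the HIF-1α libraries in the top 1.47%, 3.10% and 5.07%. With HIF-2α/1α the values were 3.61%, 5.52% and 13.8%, and with HIF-1α/2α 3.74%, 7.04% and 7.33%. Each HIF-1α library thus ranked the BNIP3 promoter higher than any HIF-2α library, and the HIF-2α/1α values overlapped both, while those of HIF-1α/2α overlapped the HIF-1α values and were each stronger than any HIF-2α value.

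At the summit, the BNIP3 promoter held 107 to 483 times as many fragments as the genome mean of the library, with a median of 253. The HIF-2α libraries gave 141, 244 and 107 times, the HIF-1α libraries 230, 474 and 270 times, and the KIN libraries 174, 483 and 258 times. The HIF-1α and HIF-2α ranges overlapped on this scale.

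A second region of BNIP3, 3.9 kb downstream of the start site in intron 1, was called in 9 tagged and 0 WT libraries. It was weaker than the promoter, with a median in the top 39.8% of the 9 lists. Regions 33.7 kb downstream, in an intron of PPP2R2D, and 2.1 kb upstream were called in 2 tagged libraries each.

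BNIP3L lies on chromosome 8 (26383054 to 26505636, plus strand). The promoter region (26381709 to 26384717, summit at 26382944) had its summit 110 bp upstream of the start site, inside the annotated pseudogene SDAD1P1. It had 15 tagged calls and no WT call. It ranked in the top 22.7%, 8.77% and 38.2% of the KIN lists, and in the top 10.7%, 3.39% and 12.2% of the HIF-2α lists. The lists with HIF-1α gave 2.3%, 2.68% and 5.81%, those with HIF-2α/1α 2.29%, 2.37% and 4.49%, and those with HIF-1α/2α 7.22%, 4.08% and 15.2%. As percents of the list, the 2 weakest ranks of the 15 were both in KIN, the line with endogenous HIF-2α. These were replicates 1 and 3, whose lists held only 3984 and 7311 peaks, and the percent depends on list length.

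The strongest region of all 37 was the region 68.4 kb downstream of the BNIP3L start site (26448184 to 26452464). It lies in the gene body as GENCODE gives it but 38.3 kb past the end of the canonical transcript. The nearest coding start site is another start site of BNIP3L, 61.1 kb away, and which gene the region acts on was not tested. All 15 tagged libraries called it, with ranks from the top 1.39% to 13.2% and a median of 3.18%. KIN gave 4.49%, 1.39% and 4.23%, so that it ranked above the promoter in each KIN library. The fragments at the summit were 179 to 978 times the genome mean. WT replicate 2 also called it, at the top 25.7% of its list and 92.8 times the genome mean, below every tagged library on both scales. With this call the Fisher test gave p = 0.0196 and adjusted p = 0.166. No ACGTG or GCGTG lay within 100 bp of this summit, and 1 AP-1 motif did (searched as TGACTCA or TGAGTCA on either strand), which 17.3% of all consensus regions held.

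The other 3 BNIP3L regions lay 75.0, 79.2 and 81.4 kb downstream and were called in 9, 2 and 2 tagged libraries. Their nearest coding start site was that of PNMA2, at 55.8, 51.6 and 49.5 kb. The region at 75.0 kb was called in 2 of 3 WT libraries and the one at 81.4 kb in 1.

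FUNDC1, on chromosome X (44523639 to 44542859, minus strand), had no peak in any of the 18 lists in its window of 119 kb, and so no value to compare. Of all protein-coding genes, 23.4% had no consensus region in such a window. That is a looser condition, since peaks seen in a single library form no consensus region. A peak that was not called is not shown to be absent, since the lists hold only peaks past the authors' threshold.

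**Figure D2:**
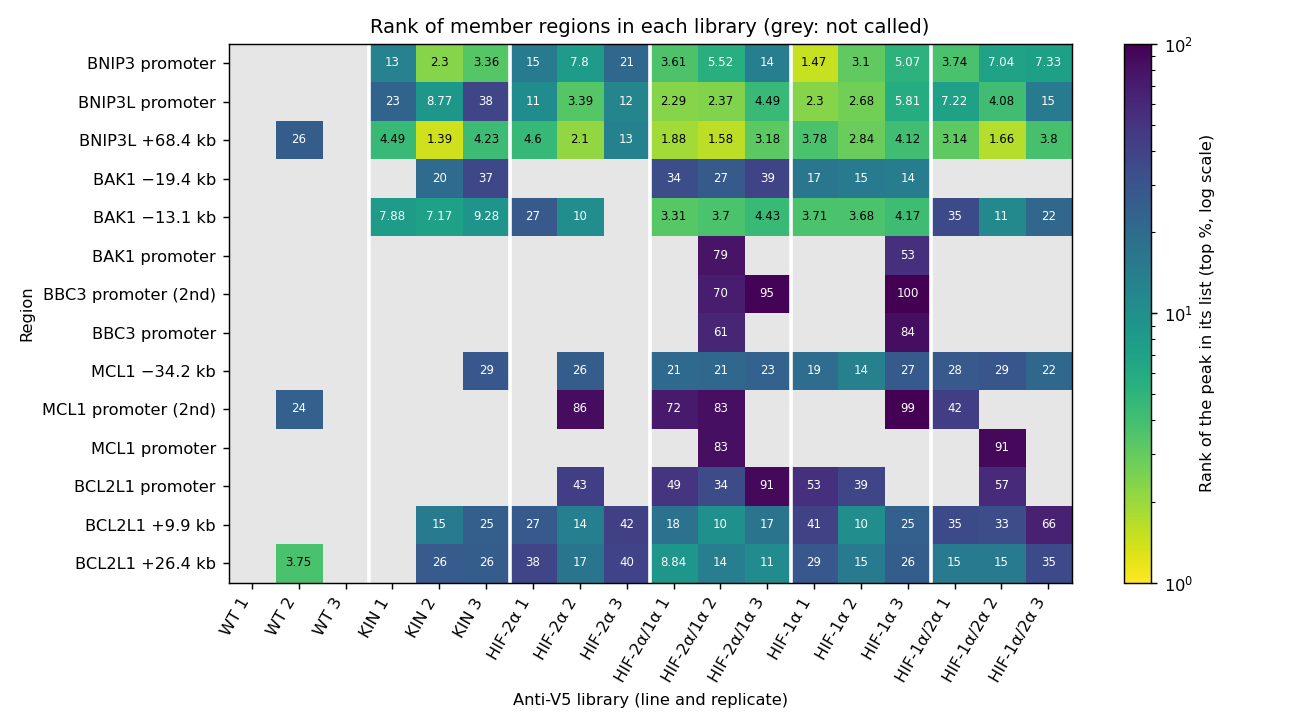
Rows are the promoter regions, the regions called in at least 12 of 15 tagged libraries and the BAK1 −19.4 kb and MCL1 −34.2 kb regions. FUNDC1 and PMAIP1 had no promoter consensus region and have no row. Columns are the 18 anti-V5 libraries. Each number and colour (log scale) is the rank of the peak in its list as a percent, with grey for no call. The BNIP3 and BNIP3L promoters lie between the top 1.47% and 38.2% in all tagged libraries, while the promoters of BAK1, BBC3, MCL1 and BCL2L1 were called in at most 7 and ranked in the top 34.0% at best in tagged libraries.

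BAK1 lies on chromosome 6 (33572547 to 33580293, minus strand), and its strongest region lay upstream. The BAK1 −13.1 kb region (33592794 to 33593827) was called in 14 of 15 tagged libraries, all but HIF-2α replicate 3, and in no WT library (Fisher p = 0.00490, adjusted p = 0.0657). Its summit lay 63 bp upstream of the start of the long noncoding RNA gene LINC00336, so that it is a promoter region of that gene and 13.1 kb from BAK1. The 3 HIF-1α libraries ranked it in the top 3.71%, 3.68% and 4.17%, and the HIF-2α/1α libraries in the top 3.31%, 3.70% and 4.43%. The HIF-1α/2α libraries ranked it in the top 35.4%, 11.4% and 21.8%, and 2 HIF-2α libraries in the top 27.5% and 10.4%. In rank, the ranges of the libraries with the HIF-1α IDR and with the HIF-2α IDR did not overlap. In fragments at the summit they did, with 137 to 453 times the genome mean with the HIF-1α IDR and 41.4 to 240 times with the HIF-2α IDR. With 1 library lacking a value the rank test could not be run here. Among 3809 regions with 6 calls with the HIF-1α IDR and at least 5 with the HIF-2α IDR, 2.84% had rank ranges apart in this direction and 0.420% in the other. The KIN libraries, with endogenous HIF-2α, lay between as percents of the list, at 7.88%, 7.17% and 9.28%. Their lists held 3984, 13193 and 7311 peaks, and the percent depends on list length.

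The BAK1 −19.4 kb region (33599287 to 33600094) was called in 6 of 6 libraries with the HIF-1α IDR and in 0 of 6 with the HIF-2α IDR (Fisher p = 0.00216, the smallest value possible; adjusted p = 1). With lists of equal length, this Fisher test of calls gave no region of these genes with an unadjusted p under 0.05 by IDR, among 9 tested. With full lists, 1.32% of all regions tested had an unadjusted p under 0.05 with more calls with the HIF-1α IDR. For more calls with the HIF-2α IDR it was 0.0949%. The BAK1 −19.4 kb region was called with HIF-1α at the top 16.5%, 15.0% and 14.1% and with HIF-2α/1α at 33.5%, 27.2% and 39.1%. KIN replicates 2 and 3 also called it, at the top 20.1% and 36.7%, so endogenous tagged HIF-2α gave a peak where no library of the exogenous HIF-2α did. No WT library called it.

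The BAK1 promoter itself, 122 bp upstream of the start of the canonical transcript, was called in 2 tagged libraries, HIF-2α/1α replicate 2 at the top 78.6% and HIF-1α replicate 3 at the top 52.6%. The other 3 BAK1 regions, 10.2 and 33.7 kb upstream and 23.1 kb downstream, were called in 7, 2 and 3 tagged libraries, and the one 33.7 kb upstream lay nearer to ITPR3.

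The BH3-only genes had weak promoter calls, in at most 3 tagged libraries. BBC3 (chromosome 19, 47220822 to 47232766, minus strand) had 2 promoter regions at different start sites, called in 2 and 3 tagged libraries, all in HIF-2α/1α or HIF-1α, at the top 60.6% to 99.6% of the lists. The second of these held CACGTG 2 bp from its summit. The BBC3 window held 6 regions in all, more than the windows of 85.2% of protein-coding genes. Of the other 4 BBC3 regions, 1 lay 34 bp upstream of a start site of CCDC9, called in 6 tagged libraries. Another lay 478 bp upstream of the start of INAFM1, called in 4.

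PMAIP1 (chromosome 18, 59899996 to 59904305, plus strand) had 1 consensus region, 23.4 kb downstream, called in 1 tagged and 1 WT library. A promoter peak, 207 bp upstream of the start site, was called in HIF-1α replicate 1 alone, at the top 66.2%. Of all protein-coding genes, 52.4% had no promoter peak in any tagged library.

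MCL1 (chromosome 1, 150560895 to 150579738, minus strand) had 8 regions, more than the windows of 92.6% of protein-coding genes. The promoter region 94 bp upstream of its nearest start site was called in 5 tagged libraries, at the top 42.3% to 99.2%, and in WT replicate 2 at the top 24.2%. The other promoter region, in intron 1, was called in 2. The most often called region of the gene lay 34.2 kb upstream in the gene body of ENSA and is named here after its values were seen. It was called in 11 tagged libraries, all 9 of HIF-1α, HIF-2α/1α and HIF-1α/2α, 1 of HIF-2α and 1 of KIN, at the top 13.6% to 29.3%. It held CACGT 60 bp from its summit. Another MCL1 region lay at the ENSA start site and was called in 5 tagged libraries.

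BCL2L1 (chromosome 20, 31664452 to 31723989, minus strand) was called most often inside intron 2. The BCL2L1 +26.4 kb region (31696204 to 31696719) and the +9.9 kb region (31712496 to 31713772) were each called in 14 of 15 tagged libraries, all but KIN replicate 1, and both lay in the body of the antisense gene BCL2L1-AS1. KIN replicate 1 had the shortest tagged list. The +26.4 kb region ranked in the top 8.84%, 13.9% and 10.8% with HIF-2α/1α, and in the top 38.0%, 16.6% and 40.0% with HIF-2α. HIF-1α gave 28.5%, 14.6% and 25.8%, and HIF-1α/2α 14.7%, 15.0% and 35.4%. WT replicate 2 called the same region at the top 3.75%, a better rank than in any tagged library, and at 175 times the genome mean against 76.4 to 279 times in the tagged libraries. This region was thus as strong in 1 library without any tag, and the part of the antibody background in it was not tested.

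The +9.9 kb region had no WT call (Fisher p = 0.00490, adjusted p = 0.0657). It ranked in the top 15.0% and 24.8% in KIN, 27.3%, 13.6% and 41.6% with HIF-2α, and 41.2%, 10.4% and 24.6% with HIF-1α. HIF-2α/1α gave 17.6%, 10.0% and 16.9%, and HIF-1α/2α gave 35.3%, 33.5% and 65.8%. All 3 HIF-1α/2α libraries ranked it below all 3 HIF-2α/1α libraries. The BCL2L1 promoter was called in 7 tagged libraries, 3 of HIF-2α/1α, 2 of HIF-1α and 1 each of HIF-2α and HIF-1α/2α, at the top 34.0% to 91.0%. Another intronic region, 18.1 kb downstream, was called in 2 of 3 WT and only 2 tagged libraries.

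**Figure D3:**
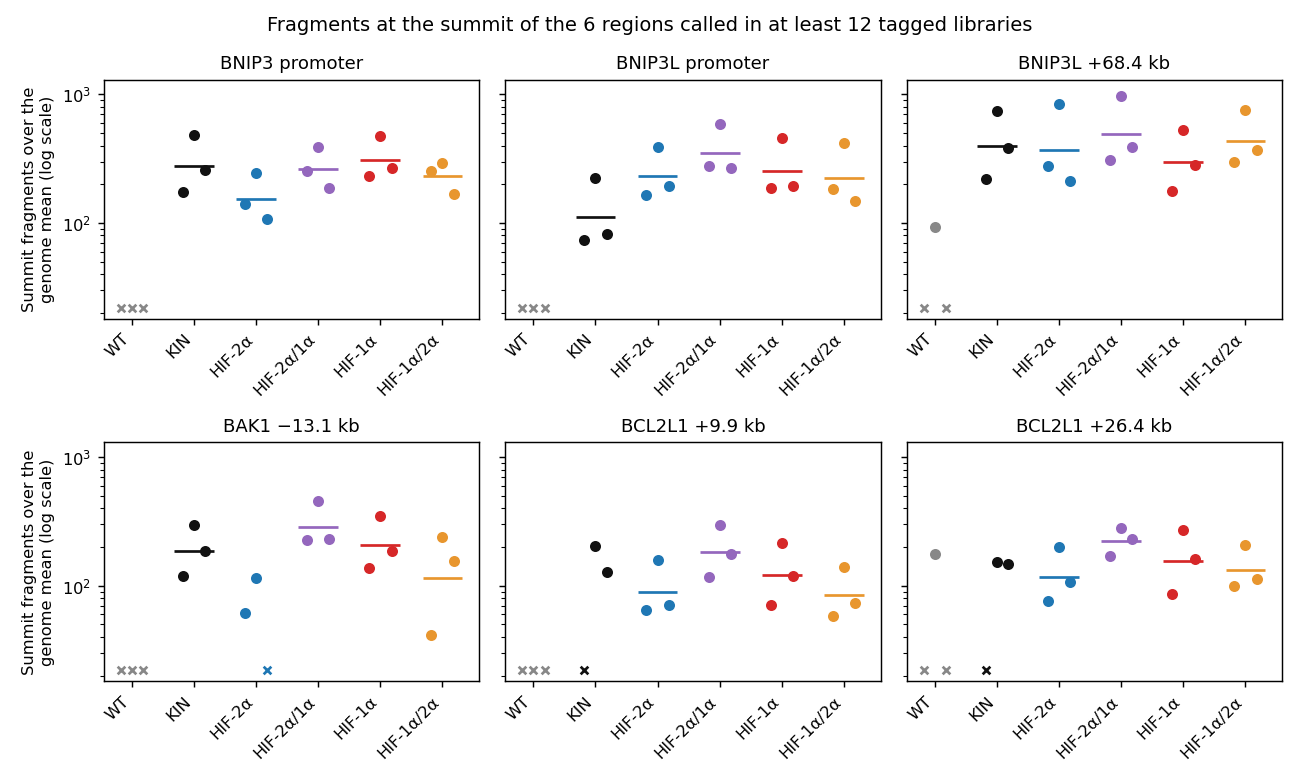
Fragments at the summit over the genome mean of the library (y axis, log scale) for each replicate of each line (x axis), in the 6 regions called in at least 12 tagged libraries. Bars are geometric means of lines with 3 calls, and crosses at the bottom are libraries without a call, which have no value. At BNIP3L +68.4 kb the tagged libraries sit between 179 and 978, above WT replicate 2 at 92.8, and at BCL2L1 +26.4 kb WT replicate 2 at 175 lies within the range of the tagged libraries.

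The promoter calls separated the 8 genes. BNIP3 and BNIP3L, 2 of 8, had a promoter peak that every one of the 5 tagged lines showed in 2 or more replicates and that no more than 1 WT library shared, against 5.64% of 20033 protein-coding genes. For both the peak was in 15 of 15 tagged libraries, against 2.52% of these genes. BNIP3, BNIP3L, BAK1 and BCL2L1, 4 of 8, had a region called in at least 12 tagged libraries in their window, against 31.3%. The other 6 genes had promoter calls in 0 to 7 tagged libraries. In lists of related genes chosen with earlier results of these data known, the same held for 1 of 16 other BCL2 family genes and for 5 of 30 other mitophagy and autophagy genes. With 15 of 15 tagged and 0 WT promoter calls there were VDAC1 (a channel of the outer mitochondrial membrane, median top 3.04%), TOMM20 (a receptor of the mitochondrial protein import machinery, median top 10.2%) and BCL2L2 (an anti-apoptotic BCL2 relative, median top 12.4%). The BNIP3 promoter, at a median of 5.52%, and the BNIP3L promoter, at 5.81%, lay between VDAC1 and TOMM20 in this order. The genes whose promoter rank followed that of BNIP3 most closely over the 15 tagged libraries were FOXD1 (Pearson r = 0.863), ENKUR (r = 0.840) and TMEM141 (r = 0.839), among 505 genes with a promoter peak in all 15. These libraries share their lines and depth, and the correlations are given as a description.

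The factorial design of the 4 exogenous lines compared the 6 libraries with the HIF-2α IDR with the 6 with the HIF-1α IDR, and likewise for the DBD. Each protein was expressed in 1 line with 3 replicates, and single libraries were the units of the tests. The p-values therefore do not measure the spread between lines, and a difference of line cannot be told apart from a difference of domain. Calls were compared with Fisher's exact test over 25285 regions, of which 35 lay in these windows (regions with at least 2 WT calls were left out). By IDR, 1 of the 35 had an unadjusted p under 0.05, BAK1 −19.4 kb, and 0 an adjusted one, as for all regions. Of the 35, 24 (68.6%) had more calls with the HIF-1α IDR and 2 (5.71%) more with the HIF-2α IDR, against 58.1% and 14.7% of all regions. The median difference was 2 fewer of 6 libraries with the HIF-2α IDR, against 1 fewer over all regions. By DBD, 0 of the 35 had an unadjusted p under 0.05 (all regions: 0.486% with more calls with the HIF-1α DBD and 0.0751% with more with the HIF-2α DBD). Of the 35, 8 (22.9%) had more calls with the HIF-1α DBD and 10 (28.6%) more with the HIF-2α DBD, against 42.4% and 25.0% of all regions. In replicates 1 and 3 the HIF-2α list was shorter than that of any other exogenous line.

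In 5 of the regions all 12 exogenous libraries had a value, and their log2 rank fraction was tested by exact permutation, two-sided, with labels exchanged only between libraries that share the other domain (400 relabellings, Benjamini-Hochberg over 2566 regions). A positive difference means a weaker rank with the HIF-2α domain. Over all 2566 regions the median difference was 0.43 by IDR and 0.07 by DBD, so that each region is read beside this shift. At the BNIP3L promoter the rank difference by IDR was 1.30 (exact permutation p = 0.025, adjusted p = 0.135). At the BNIP3 promoter it was 1.04 (exact permutation p = 0.05, adjusted p = 0.196). At BNIP3L +68.4 kb it was 0.43 (p = 0.445 in the same exact test), no more than the shift of all regions. With lists of equal length the median over all regions was 0.03, and the differences were 0.77 at the BNIP3L promoter (exact permutation p = 0.01), 0.51 at the BNIP3 promoter (exact permutation p = 0.265) and −0.10 at BNIP3L +68.4 kb (exact permutation p = 0.72).

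At BCL2L1 +9.9 kb and +26.4 kb the IDR differences were 0.88 (exact permutation p = 0.055) and 0.63 (exact permutation p = 0.17). One of the 5 regions, the BNIP3L promoter, therefore had an unadjusted p under 0.05, against 24.4% of all regions, 20.7% in this direction and 3.70% in the other. No region of the 2566 passed after adjustment, and the smallest adjusted p was 0.0782.

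By DBD, the BNIP3 promoter ranked weaker with the HIF-2α DBD by 1.22 (exact permutation p = 0.02, adjusted p = 0.221). The unadjusted call was lost with lists of equal length (0.88, exact permutation p = 0.06) and when any one of HIF-2α replicates 1 and 3 and HIF-1α replicates 1 and 2 was left out. The BNIP3L promoter differed by −0.09 (exact permutation p = 0.84) and BNIP3L +68.4 kb by 0.08 (exact permutation p = 0.9). The BCL2L1 regions went the other way, at −0.69 for +9.9 kb (exact permutation p = 0.115) and −0.22 for +26.4 kb (exact permutation p = 0.615). All regions gave 14.2% with an unadjusted p under 0.05, 11.1% weaker and 3.08% stronger with the HIF-2α DBD. The BNIP3 and BNIP3L promoters were thus alike in their calls, and only that of BNIP3 passed the unadjusted threshold by DBD. Whether the DBD acted on them differently was not tested.

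The fragments at the summit were compared in the same way. With the HIF-2α IDR the log2 of this signal was lower at the BNIP3 promoter (difference −0.60, exact permutation p = 0.08) and at the BNIP3L promoter (difference −0.39, exact permutation p = 0.35), against a median shift of −0.22 over all regions. BCL2L1 +9.9 kb gave −0.78 (exact permutation p = 0.095), BCL2L1 +26.4 kb −0.58 (exact permutation p = 0.155) and BNIP3L +68.4 kb 0.07 (exact permutation p = 0.875). By DBD the BNIP3 promoter gave −0.41 (exact permutation p = 0.195), and the other 4 regions gave 0.17 to 0.34, beside a median of 0.11 over all regions. None of the 5 regions had an unadjusted p under 0.05 on this scale, against 7.39% of all regions by IDR and 3.64% by DBD. The IDR effect on rank did not differ between the 2 DBDs at an unadjusted p of 0.05 in any of the 5 regions (exact permutation test of the interaction, smallest p = 0.095, at BNIP3L +68.4 kb and BCL2L1 +26.4 kb), against 1.4% of all regions.

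**Figure D4:**
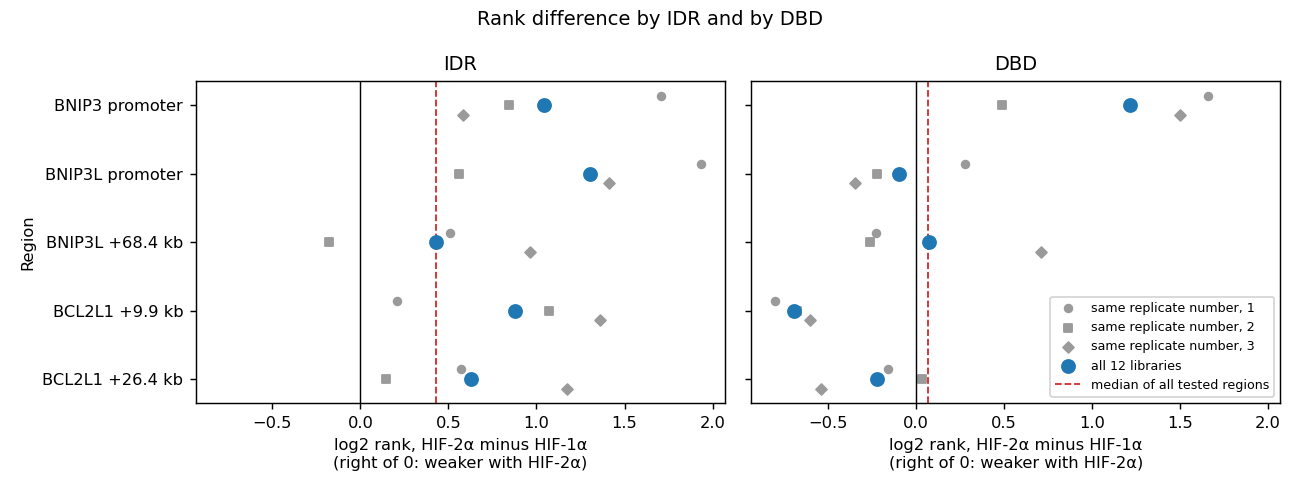
Difference in mean log2 rank fraction, HIF-2α minus HIF-1α, by IDR (left) and by DBD (right) for the 5 regions called in all 12 exogenous libraries (y axis). Blue points use all 12 libraries, grey points the libraries of 1 replicate number, and the dashed red line is the median over 2566 regions, 0.43 by IDR and 0.07 by DBD. In the left panel the BNIP3 and BNIP3L promoters and both BCL2L1 regions lie to the right of the dashed line. In the right panel the BNIP3 promoter does. BNIP3L +68.4 kb lies almost on the line in both panels.

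The exogenous HIF-2α and the endogenous protein of KIN were set side by side. Of the 37 regions, 6 were called in at least 2 of 3 HIF-2α libraries and 7 in at least 2 of 3 KIN libraries, and the 6 were among the 7. Of all consensus regions that reached this mark with HIF-2α, 56% also reached it in KIN, and of those that reached it in KIN, 74.3% also did with HIF-2α. These 6 were the ones called in at least 12 tagged libraries, and the one added in KIN was BAK1 −19.4 kb. As shares of the 37 these were 16.2% for HIF-2α and 18.9% for KIN, against 26% and 19.6% of all consensus regions. The other lines reached this mark at 20 regions (HIF-2α/1α, 54.1%), 16 (HIF-1α, 43.2%) and 12 (HIF-1α/2α, 32.4%), against 53.7%, 55.1% and 42.4% of all consensus regions. At the BNIP3 promoter KIN ranked at a geometric mean of the top 4.65% (SD 1.31 on the log2 scale, n = 3) and HIF-2α at 13.6% (SD 0.74, n = 3). At the BNIP3L promoter the order was turned, with KIN at 19.7% (SD 1.08, n = 3) and HIF-2α at 7.62% (SD 1.01, n = 3). These percents depend on list length, which differed between the libraries. The single libraries of the 2 lines overlapped in both cases, and 3 against 3 libraries cannot give a two-sided exact p under 0.1, so no test was made.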

How the data were processed

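Per the labels and the submitters' processing notes, the authors used Bowtie2 version 2.3.4.1 on hg38 and MACS2 (q-value 0.01), with each anti-V5 library set against the IgG control of its line and replicate. Peaks in blacklisted regions were removed with bedtools version 2.28.0. Replicates were not pooled for these peak lists. The lists as deposited by the authors give each peak's fold (ratio) over the local background, its −log10 p and −log10 q, and the offset of its summit. No read counts were used here, so the fold and −log10 p that the authors deposited were used to solve for depth and for the fragments at each summit, which succeeded for at least 99.96% of the peaks of a list. One library, HIF-2α/1α replicate 2, had a pileup scaled by 0.949, which was found by a scan.

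An overlap of 1 bp or more joined peaks of the 18 lists into a region, and a region needed peaks from 2 or more libraries. Genes and start sites came from GENCODE release 44 on the same build, and a promoter region has its summit within 1 kb of a coding start site. Groups and replicate numbers came from the labels, whose design text calls the 3 replicates of a line biological. Calls were compared with two-sided Fisher's exact tests and log2 rank fractions with exact permutation tests, each run on every region that met its condition across the genome (25783 regions for tagged against WT, 25285 for calls by domain, 2566 for ranks), adjusted by Benjamini-Hochberg over those and tested on simulated data. The rule for regions to be described singly took promoter regions, those called in at least 12 tagged libraries and those with an unadjusted p under 0.05. Other regions that the text names by position or nearest gene fall outside this rule, and their naming is not a result. The genes and the lists of related genes were chosen with earlier results of these data known. Alternatives were a −log10 q of at least 5, lists of equal length, leaving out each library, summits clustered within 200 bp, windows of 10 kb, promoter distances of 500 bp and 2 kb, a replicate block, ranks by fold and summit fragments. Python 3.11.15 was used with NumPy 2.4.6, SciPy 1.17.1, pandas 2.3.3 and matplotlib 3.10.9.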

Additional observations from a re-analysis of the deposited data

How the results depend on the processing

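Limits come first. The lists hold calls only, so the absence of a peak is bounded by the depth of its library, and 3 libraries a line limit the tests. BNIP3 and BNIP3L, and no other of the 8 genes, had a promoter peak in every tagged line at a −log10 q of at least 5, with lists of equal length, with promoter distances of 500 bp and 2 kb and when leaving out each library (2 of 8 genes in each case). Of the regions called more often in tagged than in WT libraries, 2 in the report, 1 was left with summits clustered within 200 bp. Leaving out 1 library gave 0 to 3 regions, with 0 without each of the 3 WT libraries, where the design could no longer reach the threshold.

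By IDR, the count of regions sorted by calls, 1 in the report, became 0 with lists of equal length and 0 with windows of 10 kb, which leave out BAK1 −19.4 kb. Leaving out 1 library gave 1 to 2. By DBD it was 0 to 2 when leaving out 1 library, with 2 without HIF-2α/1α replicate 2 or HIF-1α/2α replicate 3. The count ranked differently by IDR, 1 in the report, became 2 at a −log10 q of at least 5, 2 with the replicate block and 0 with fragments at the summit, and 1 to 2 when leaving out 1 library. The count by DBD, 1 in the report, became 0 with lists of equal length, 2 with the replicate block and 0 with fragments at the summit, and 0 to 1 when leaving out 1 library. The BNIP3 promoter lost its unadjusted p under 0.05 by DBD with lists of equal length (0.88, exact permutation p = 0.06), and without HIF-2α replicate 1 (p = 0.08), HIF-2α replicate 3 (p = 0.09), HIF-1α replicate 1 (p = 0.075) or HIF-1α replicate 2 (p = 0.065, all by the exact permutation test). By IDR it gained one at a −log10 q of at least 5 (1.13, exact permutation p = 0.04). It also gained one without HIF-2α/1α replicate 3 (1.38, exact permutation p = 0.01) and with HIF-1α/2α replicate 1 left out (1.29, exact permutation p = 0.025). BCL2L1 +9.9 kb gained one by IDR without HIF-2α replicate 2 (1.13) or HIF-1α replicate 1 (1.12), and by DBD without HIF-1α replicate 2 (exact permutation p = 0.015 in each case) and with the replicate block (exact permutation p = 0.03125). The cause was not tested.

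The interaction of IDR and DBD, 0 regions in the report, gave 1 with lists of equal length, 1 with ranks by fold and 0 to 1 when leaving out 1 library. The number of regions shared by HIF-2α and KIN, 6 in the report, was 5 to 7 under the other alternatives and 4 to 6 when leaving out 1 library. The alternatives for these 2 results, and for regions outside promoters, were chosen after seeing the data. With regions called in any WT library left out, the count sorted by IDR was 1. Replicate numbers do not pair the libraries by the labels. Deviations of libraries with the same number correlated at 0.0645 to 0.267 over 18 pairs, not all over 0.1, and those with different numbers at −0.163 to 0.0411. Each library correlated best with its own number, a hint from the data only. With the replicate block the BNIP3 promoter had an exact permutation p of 0.03125 by IDR, which is the smallest the 64 relabellings allow.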
